A study of Mus musculus with 2 samples.

Results

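Methylated DNA was examined at 10 imprinted genes of the mouse in the V/SVZ and the cortical plate (CP) of the embryonic cerebral wall: Dlk1, Meg3, Rian and Mirg of chromosome 12, Rasgrf1 of chromosome 9, Impact of chromosome 18, Zdbf2 of chromosome 1, Trappc9 and Kcnk9 of chromosome 15, and Inpp5f of chromosome 7. Both tissues were dissected by hand from ICR embryos at embryonic day 16, and each gave 1 library. The V/SVZ is rich in neuronal progenitors and the CP in differentiating neurons. Methylated fragments were purified with a methylated DNA enrichment kit and sequenced, and the tags of a region are the reads aligned to it. Regions were chosen when the gene symbol annotated to them equalled a member, in any of 4 deposited lists: V/SVZ over control, CP over control, V/SVZ over CP, and CP over V/SVZ. The lists named 13253 genes in all, and the 10 members held 45 of 147297 listed regions. Each library stands for its tissue without a replicate, so no difference given here has a replicate error, and no test between tissues was possible.

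Imprinted genes are expressed mainly from the maternal or the paternal copy. The choice is set in the germ line by methylation of a control region on the copy from a single parent, and in somatic tissue that region normally stays methylated on that copy. Many imprinted genes act in the growth and function of the brain, and some are imprinted there and not in other tissues. The method used here captures methylated fragments from either copy, and the tags were not assigned to a parent. In bulk tissue, a change in the share of cells that carry methylation and a change within each cell cannot be told apart.

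The lists held 52283 V/SVZ and 53404 CP regions over control, with a median of 11 and 17 tags. Both control lists stop at a lowest fold of the region over its local expectation, a value given by the authors, of 11.48 in V/SVZ and 14.71 in CP. A region missing from a control list can therefore lie under that fold. At the 32326 autosomal regions that both control lists shared by at least 1 bp, the median ratio of CP to V/SVZ tags was 1.81, and the central 95% of them ran from 0.571 to 4.93. Ratios at regions of both control lists are read beside that median, since no library totals were used and tags were not scaled for depth. Intervals are exact binomial 95% intervals, which cover counting error only.

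Regions were listed for 5 of the 10 members: Dlk1, Rasgrf1, Impact, Inpp5f and Kcnk9. Each of the 5 had regions over control in both tissues, beside a background of 45.1% of RefSeq genes with a curated transcript in V/SVZ and 46.8% in CP. No line in any list named Meg3, Rian, Mirg, Zdbf2 or Trappc9, whether by symbol, gene ID or synonym. A missing name does not show that a gene lacked regions. No gene was assigned to 45.4% of V/SVZ and 49.4% of CP regions over control, and such regions lay between the neighbours of these 5 genes (below). The 5 of 10 is therefore not read beside the share of RefSeq genes. The members had 16 regions over control in V/SVZ and 14 in CP. These had a median of 12 and 15 tags. In the direct lists 3 of the 5 genes had a V/SVZ over CP region (5 regions), where 54.6% of all genes with a control region did. CP over V/SVZ regions were listed for 4 of the 5 (10 regions), where 57.0% of all genes had one. With 5 genes, neither count stands apart from its background.

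Most of the members' regions lay inside the genes. Of the 16 V/SVZ regions over control, 10 lay inside a gene, 2 over its 3' end, 2 upstream and 2 downstream. In CP the corresponding counts were 9, 1, 1 and 3. Positions were not counted over all listed regions, so these counts describe the members only and set them apart from no background. None of the 45 listed regions overlapped a 5' end or lay within 1 kb upstream of it. A promoter region over control was listed for 7.93% of all genes with a control region, so 0 of 5 genes does not stand apart from the background. Promoter sequences of 300 bases are shown for the members that had both listed regions and an entry in the RefSeq promoter table (GRCm38.p6, all on the plus strand), because the capture depends on methylated CpG sites. The capitals mark each CG.
Dlk1 promoter: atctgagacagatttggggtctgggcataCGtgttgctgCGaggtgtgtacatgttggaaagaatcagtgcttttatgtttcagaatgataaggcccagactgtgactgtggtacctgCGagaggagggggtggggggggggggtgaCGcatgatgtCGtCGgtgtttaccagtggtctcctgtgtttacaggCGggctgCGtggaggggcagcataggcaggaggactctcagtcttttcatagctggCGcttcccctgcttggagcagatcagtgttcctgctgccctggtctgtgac
Rasgrf1 promoter: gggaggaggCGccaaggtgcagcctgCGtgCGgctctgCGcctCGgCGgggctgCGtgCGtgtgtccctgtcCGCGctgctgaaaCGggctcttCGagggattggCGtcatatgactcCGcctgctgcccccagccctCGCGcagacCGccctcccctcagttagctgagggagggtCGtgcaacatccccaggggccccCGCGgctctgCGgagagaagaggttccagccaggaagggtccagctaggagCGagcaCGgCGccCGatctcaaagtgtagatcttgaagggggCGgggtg
Inpp5f promoter: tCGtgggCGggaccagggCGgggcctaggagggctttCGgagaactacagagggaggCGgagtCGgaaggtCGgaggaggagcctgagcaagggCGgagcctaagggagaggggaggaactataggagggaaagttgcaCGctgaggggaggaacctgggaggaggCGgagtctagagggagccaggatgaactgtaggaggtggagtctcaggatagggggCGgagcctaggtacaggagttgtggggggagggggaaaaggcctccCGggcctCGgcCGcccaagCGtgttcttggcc

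The Dlk1 window (chr12:109452573-109452872) holds 9 CG sites, that of Rasgrf1 (chr9:89909525-89909824) holds 26 and that of Inpp5f (chr7:128611115-128611414) holds 15. At least 1 CG, searched as these letters, is in 94.6% of the 32851 promoters of that length, and the median is 7. The windows thus range from close to the median to the CpG-rich side: 54.2%, 83.1% and 65.4% of promoters hold fewer. The deposited distances place the 5' end of the Dlk1 transcript at 110691432 on chromosome 12 in mm9. No region of any list covered the window from 250 bases before to 50 after that end, and the nearest lay 4272 bp before and 6345 bp after it.

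**Figure D1:**
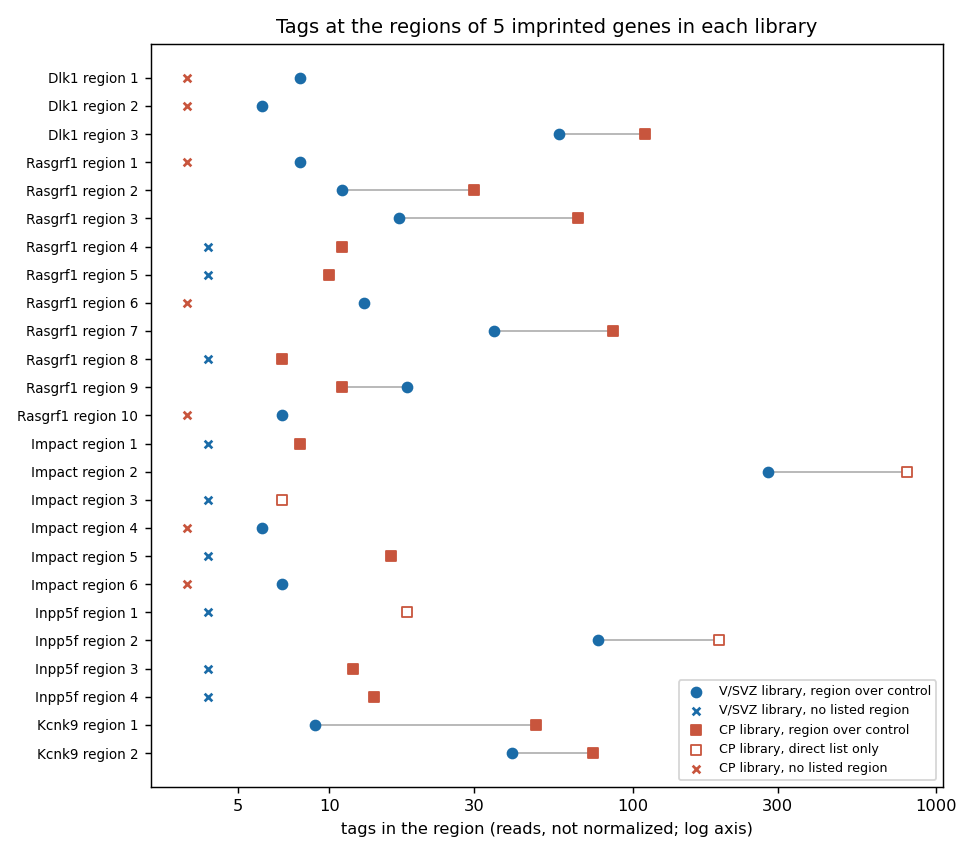
Tags (x axis, log scale, not normalized) at each of the 25 distinct places where the 5 genes had a listed region, numbered along the chromosome, in V/SVZ (circles) and CP (squares). Open squares are CP tags known from the direct list only, and crosses at the left mark a library without a listed region. Impact region 2 stands apart with 279 and 799 tags.

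The regions fell on 25 distinct places. Both control lists held 7 of them, and the CP tags of another 2 were known from the CP over V/SVZ list. V/SVZ alone had a region at 7 places, with 6 to 13 tags, and CP alone at 9, with 7 to 18 tags. Places listed in a single tissue thus had few tags throughout. Of the V/SVZ regions over control, 7 of 16 overlapped a CP region, where 64.5% of all V/SVZ regions did. Of the CP regions, 7 of 14 overlapped a V/SVZ region, where 62.9% did.

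At the Dlk1-Meg3 domain, Dlk1 encodes a transmembrane protein related to Notch ligands and is expressed from the paternal copy. Its main region lay inside the gene (gene ID 13386, chromosome 12, 110697777 to 110698773, mm9), from 6345 to 7341 bp past the 5' end. It had 57 V/SVZ tags and 110 CP tags. CP had more tags than V/SVZ, at a ratio of 1.93 (1.39 to 2.71), which does not stand apart from the median of 1.81. In both control lists the region was among the upper 5% by tags (ranks 2441 and 2361) and appeared in neither direct list. Dlk1 also had small upstream regions in V/SVZ, of 6 tags at 4272 bp and 8 tags at 8383 bp from the transcript. Both were called in V/SVZ over CP, with an authors' false discovery rate of 60.7% and 82.1%. No CP region was listed at either, although the numbering of the CP control list leaves 1 region unlisted between those that flank Dlk1.

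Meg3, Rian and Mirg are noncoding RNAs expressed from the maternal copy of the same domain, and Rian and Mirg are host genes of small nucleolar RNAs and microRNAs. In the RefSeq gene order Meg3 lies between Dlk1 and Rtl1, a gene derived from a retrotransposon, and Rian and Mirg lie between Rtl1 and Dio3, a deiodinase of thyroid hormone. Regions with no gene assigned were therefore counted between the listed regions of these neighbours, a choice made after the lists had been seen. They cannot be attributed to a gene, since no mm9 annotation of these RNAs was used. From the first Dlk1 region to the last of Dio3, 40 V/SVZ and 37 CP regions over control lay over 845.8 kb, and 34 and 35 of them had no gene assigned.

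Between Dlk1 and Rtl1 (119.6 kb), 6 V/SVZ and 5 CP regions had no gene assigned. The libraries shared 3 of them, with a median ratio of 1.45. The 3 had 20 against 29, 14 against 40 and 26 against 33 tags in V/SVZ and CP, and each interval included 1.81. In the same stretch, regions of opposite calls lay 282 bp apart. A V/SVZ region of 38 tags (110765480 to 110766051) was in the V/SVZ over CP list, with a false discovery rate of 47.1%. Beside it, a CP region of 77 tags (110764540 to 110765197) was in the CP over V/SVZ list. Its false discovery rate was 100%, as for every region of that list. The numbering of the CP control list leaves 3 regions unlisted between this CP region and the next listed one, so CP regions under the lowest fold may lie over the V/SVZ region.

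Rtl1 itself had 1 region over control in each tissue, of 23 tags in V/SVZ and 8 in CP, both downstream and apart from each other. Its V/SVZ over CP regions held 12 and 16 tags, the larger of them inside the gene. Between Rtl1 and Dio3 (694.7 kb), 28 V/SVZ and 30 CP regions had no gene assigned. The libraries shared 19 of them, with ratios from 0.579 to 4.38 and a median of 1.55. The ratio interval lay above 1.81 at 2 of the 19, with 8 against 35 and 14 against 53 tags. It lay below 1.81 at 3. Over all autosomal shared regions, 12.3% lay above and 10.1% below. This stretch thus held regions of both kinds. The 1 region of Dio3 lay 8983 bp downstream, with 6 tags in V/SVZ.

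**Figure D2:**
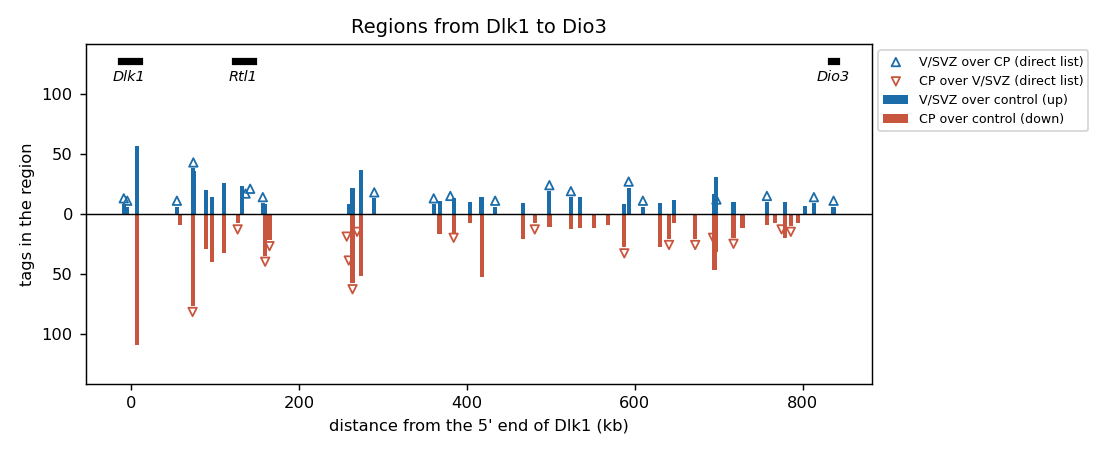
Tags (y axis) of each region over control from Dlk1 to Dio3, by distance from the 5' end of Dlk1 (x axis, kb), in V/SVZ (up) and CP (down). Triangles mark regions in the direct lists, and black bars span the listed regions of Dlk1, Rtl1 and Dio3. The tallest bars are the Dlk1 region, with 57 and 110 tags.

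Rasgrf1 encodes a guanine nucleotide exchange factor of Ras that couples neuronal receptors to Ras, and it is expressed from the paternal copy in brain. It had the most regions of the members: 10 distinct places (gene ID 19417, chromosome 9, 89818852 to 89921890), with 7 regions over control in each tissue, all inside the gene except a V/SVZ region of 7 tags over its 3' end. The tissues shared 4 of the places. CP tags exceeded V/SVZ tags at 3 of the 4, where they did at 84.4% of all autosomal shared regions. The numbering of both control lists is complete across the gene (0 regions unlisted).

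The region with the most tags (89889388 to 89889906) had 35 V/SVZ tags and 86 CP tags, a ratio of 2.46 (1.64 to 3.75), which includes the median. The region from 89848591 to 89849118 held 17 and 66, a ratio of 3.88 (2.25 to 7.06), and was in the CP over V/SVZ list. Its interval lay above the median of 1.81. The place from 89841154 to 89842043 held 11 and 30 tags, a ratio of 2.73 (1.33 to 6.03). Here the CP region was 890 bp long and the V/SVZ region 397 bp. Per kb the ratio was 1.22, beside a per kb median of 1.64 over all shared autosomal regions.

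The fourth shared place went the other way. It had 18 V/SVZ tags and 11 CP tags (89913150 to 89913442), a ratio of 0.611 (0.261 to 1.37). That was the lowest ratio of the members, at the 3.09th percentile of shared autosomal regions, and the place was in the V/SVZ over CP list with a false discovery rate of 73.1%. The other V/SVZ over CP region of the gene held 13 tags (89865594 to 89865884), and no CP region overlapped it. A CP region of 10 tags lay 141 bp before it. The CP over V/SVZ list also had regions of 11 and 7 tags where V/SVZ had none listed. Rasgrf1 thus had regions in both direct lists, as did 31.3% of all genes with a control region.

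**Figure D3:**
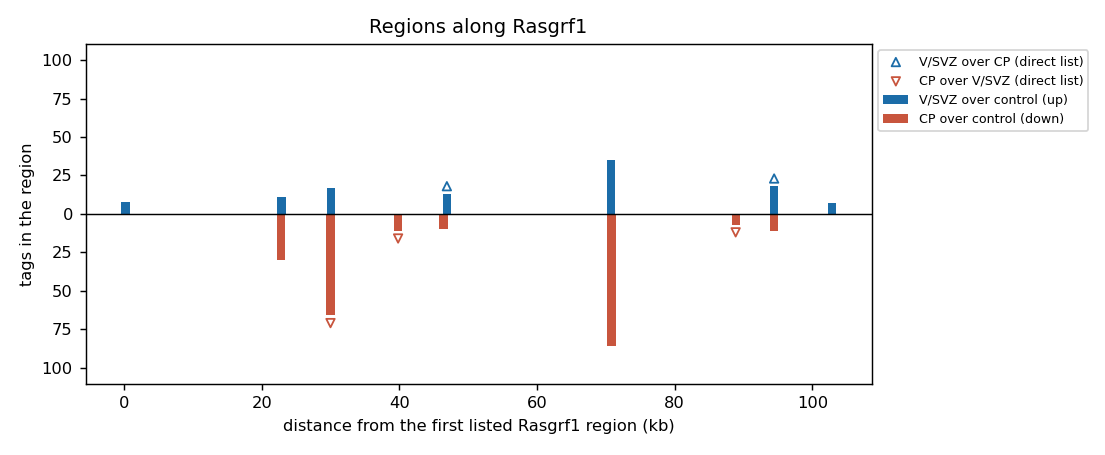
Tags (y axis) of each Rasgrf1 region over control by distance from the first listed region (x axis, kb), in V/SVZ (up) and CP (down), with triangles for regions in the direct lists. CP bars are longer at 3 of the 4 shared places, and the V/SVZ bar (18 against 11 tags) is longer at the other.

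Farther upstream, between the listed regions of Tmed3 and Rasgrf1, a long region with no gene assigned had 125 V/SVZ tags and 293 CP tags (chromosome 9, 89774423 to 89776118 in CP). It was 1578 bp long in V/SVZ and 1696 bp in CP, and its ratio was 2.34 (1.90 to 2.91). It thus held more tags in each library than any region assigned to Rasgrf1, and it was in neither direct list. A smaller region of the same stretch held 6 and 31 tags (89726842 to 89727157) and was in the CP over V/SVZ list.

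Impact encodes an inhibitor of the translation regulator GCN2 that is abundant in neurons, and it is expressed from the paternal copy. A region inside the gene near its start held by far the most tags of the members (gene ID 16210, chromosome 18, 13131167 to 13133171). It held 279 tags over 1900 bp in V/SVZ and 799 tags over 2005 bp in CP. CP had more tags, at a ratio of 2.86 (2.50 to 3.29). The CP count is known only from the CP over V/SVZ list, which fixes this direction. The ratio is therefore not read beside 1.81. In V/SVZ the region ranked 100th by tags and 48th by length of 52283 regions. The deposited distances place the 5' end of the transcript at 13130760, so that the CP region ran from 407 to 2411 bp past it.

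The CP tags of this Impact region come from the CP over V/SVZ list, where it was 17th of 19696 regions by tags. The CP control list does not hold it. In V/SVZ its fold was 11.85, close to the end of that list, and the CP control list ends at 14.71. The numbering of CP control regions leaves 2 unlisted between the nearest listed ones. Its missing line is thus no sign that CP lacked tags there. Wherever a direct region overlapped a listed control region of the same library, position and tags were identical (15235 of 15235 in CP), so the direct list gives the same kind of count.

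The other Impact regions were small. V/SVZ had 6 tags inside the gene (13145273 to 13145509, in V/SVZ over CP) and 7 tags 1394 bp downstream. CP had 16 tags inside the gene (13148261 to 13148619), 7 tags inside it (13143712 to 13143952) and 8 tags 8917 bp upstream, and the latter pair were in CP over V/SVZ. None of these overlapped a listed region of the other library.

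Inpp5f encodes a phosphatase of inositol phospholipids, and in brain a transcript that starts within the gene is expressed from the paternal copy. Its main region lay inside the gene (gene ID 101490, chromosome 7, 135830850 to 135832203) and held 77 tags over 1260 bp in V/SVZ and 193 over 1354 bp in CP. CP had more tags, at a ratio of 2.51 (1.91 to 3.31). The region was also within 10 kb of the neighbouring gene 1110007A13Rik. As for Impact, its CP tags come from the CP over V/SVZ list, and 1 CP control region is unlisted between the nearest listed ones. CP had further regions of 18 tags inside the gene and of 12 and 14 tags downstream, at 1898 and 3062 bp. V/SVZ had no listed region at these, and no V/SVZ over CP region was assigned to Inpp5f.

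Kcnk9 encodes a leak potassium channel of the TASK family and is expressed mainly from the maternal copy in brain. It had 2 places (gene ID 223604, chromosome 15). A region 6383 bp downstream of the transcript (72335698 to 72336165) had 9 V/SVZ tags and 48 CP tags. CP tags exceeded V/SVZ tags at a ratio of 5.33 (2.59 to 12.4), the highest of the 9 places with tags in both libraries. That was at the 98.3rd percentile of shared autosomal regions, and the place was in the CP over V/SVZ list. Over the 3' end (72342381 to 72343528), 40 tags in V/SVZ stood against 74 in CP, a ratio of 1.85 (1.24 to 2.79), which does not stand apart from the median.

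Trappc9, a subunit of a vesicle tethering complex whose brain expression is biased to the maternal copy, follows Kcnk9 in the RefSeq gene order. Peg13, a noncoding RNA expressed from the paternal copy, lies within it. Between the listed regions of Kcnk9 and Chrac1 (574.3 kb), 20 V/SVZ and 28 CP regions had no gene assigned. The libraries shared 17 of them, and all 17 ratios lay between 0.875 and 2.13, with a median of 1.47 and each interval around 1.81. The largest held 64 and 96 tags (72888298 to 72889064). Peg13 had a region over its 5' end in V/SVZ, of 52 tags over 1592 bp (72639642 to 72641233). No CP region was listed there, and 1 CP control region is unlisted between the nearest listed ones.

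Zdbf2, a zinc finger gene expressed from the paternal copy, lies next to Gpr1 on chromosome 1. Between the listed regions of Gpr1 and Adam23 (344.7 kb), 5 V/SVZ and 5 CP regions had no gene assigned. Of the 3 shared, 2 had a ratio interval above 1.81. Over all 5 stretches between neighbours described here, 6 of 44 shared regions did and 3 lay below, beside 12.3% and 10.1% of all autosomal shared regions. The 2 above it between Gpr1 and Adam23 held 15 against 54 tags (63368773 to 63369502) and 23 against 81 (63411239 to 63412163), ratios of 3.60 and 3.52. The third held 19 and 21. CP over V/SVZ regions numbered 5 in this stretch, among them the 2 with high ratios, and V/SVZ over CP regions 1. Over all 5 stretches they numbered 26 and 18. Of all control regions, 28.5% in CP and 35.6% in V/SVZ were also direct regions. So few regions do not set this stretch apart. A region inside Gpr1 held 15 and 51 tags, a ratio of 3.40 (1.88 to 6.51).

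Set together, CP tags exceeded V/SVZ tags at 6 of the 7 places in both control lists, near the share of 84.4% over all autosomal shared regions. The tags of these places summed to 187 for V/SVZ and 425 for CP, a pooled ratio of 2.27 (1.91 to 2.71). The median of the 7 ratios was 2.46, and they ran from 0.611 to 5.33. The pooled interval treats the places as a single count and does not cover this spread between them. No pooled ratio over all shared regions was computed, so 2.27 is not read beside 1.81, a median of single regions. The ratio interval lay above 1.81 at 2 of the 7 places and below it at 1, where 12.3% of all autosomal shared regions lay above and 10.1% below. The 2 above it were the downstream Kcnk9 region and a Rasgrf1 region, both in the CP over V/SVZ list. So few places do not set the members apart from that background. The CP tags of the Impact and Inpp5f places are known only because these are in the CP over V/SVZ list, which fixes their direction. They are therefore given singly and support no count here.

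**Figure D4:**
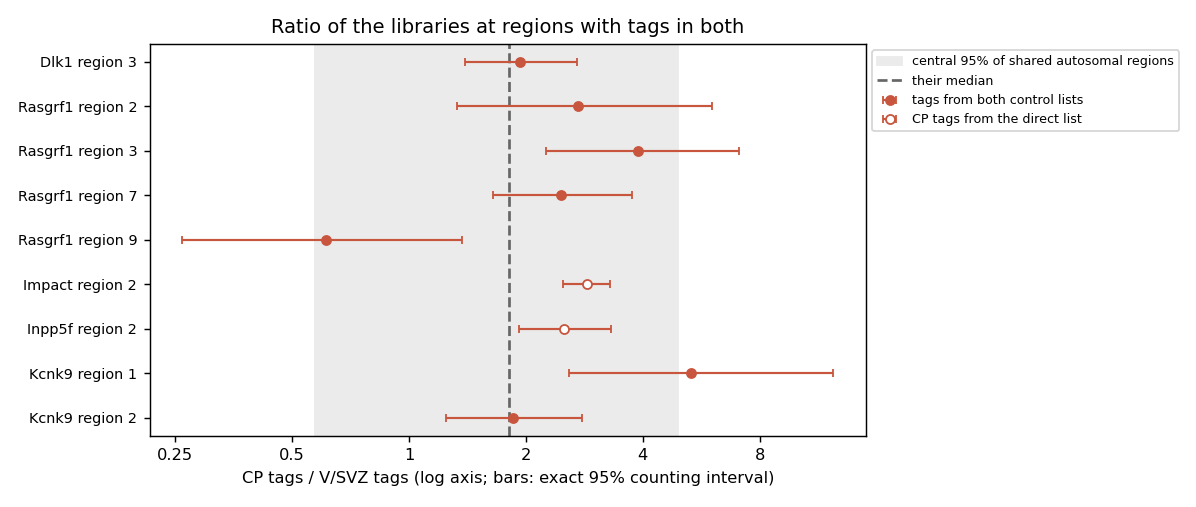
Ratio of CP to V/SVZ tags (x axis, log scale) with its exact 95% interval at the 9 places with tags in both libraries. The dashed line is the median of autosomal shared regions (1.81), and the grey band their central 95%. Open circles take CP tags from the CP over V/SVZ list, which fixes their direction, and are not read beside that line. A single place, Rasgrf1 region 9, lies below the line.

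The direct calls of the members had weak support from the authors' own error rate. The 5 V/SVZ over CP regions held 6 to 18 tags, with false discovery rates of 47.6% to 82.1%. Over that whole list the median rate was 67.6% and the highest 89.96%, so these rates are not particular to the members. The 10 CP over V/SVZ regions held 7 to 799 tags, and their rate was 100%, as for every region of that list. The authors' scores (the negative log10 of the caller's p, times 10) ran from 67.8 to 156 and from 53.3 to 156 in these sets. Of the members' control regions, 5 of 16 in V/SVZ and 6 of 14 in CP were also direct regions, where 35.6% of all V/SVZ and 28.5% of all CP control regions were.

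Among 48 other imprinted genes, 39 had a region over control, 37 in V/SVZ and 35 in CP. Of RefSeq genes with a curated transcript, 45.1% had one in V/SVZ and 46.8% in CP. Of these 39, 16 had a V/SVZ over CP region (beside 54.6% of all genes with a control region) and 29 a CP over V/SVZ region (beside 57.0%). A promoter region over control was listed for 17 of the 39 (beside 7.93%). These are counts of genes, and neighbours such as Peg3 and Usp29 can share a region, so they are not counts of distinct regions. For 29 genes the shared region with the most CP tags was taken. These were 25 distinct regions, since neighbouring genes can share one, and the median ratio over the 25 was 2.51. A choice by CP tags favours high ratios of CP to V/SVZ, so 2.51 is not read beside the median of 1.81. The genes whose ratio was nearest to that of the Dlk1 region, the most tagged member place in both control lists, were Slc22a2 (24 and 46 tags, ratio 1.92), Slc22a18 (15 and 31, ratio 2.07) and Ppp1r9a (30 and 66, ratio 2.20). They lay 0.01, 0.10 and 0.19 from it in log2 ratio, over 2 libraries.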

How the data were processed

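The tables came from 1 V/SVZ and 1 CP library of methylated DNA, grouped by the tissue label. The submitters' processing notes name CASAVA 1.8, Bowtie and the build mm9. Regions carry MACS names, per the file headers and rows; its settings and version, like the kind of control, were not given in the sources used here. Deposited tags are a count of the library's reads per region, not normalized. The score (minus 10 times log10 of the caller's p), the fold and the false discovery rate in percent are the authors' values, per the file headers, and describe a region within its list. Each control table holds 65535 lines by falling fold, and 6299 V/SVZ and 15993 CP numbered regions are not in them. The direct tables hold every number.

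Each region was counted once per gene and table. Where several regions of a library overlapped 1 of the other, their tags were summed. Intervals are exact binomial ones at 95% (scipy 1.17.1), and the overlap code was tested on simulated data. Reads without molecular identifiers are not independent molecules, so the intervals can be too narrow. No p-value was computed, since each tissue had 1 library. Members, lists and tests were chosen with earlier results of these data known. All members are named, with neighbours that had a region; of 48 other imprinted genes, the 3 nearest in ratio to the top member place are named. Alternatives were a score of at least 100, 5 kb in place of 10 kb, a common lowest fold, direct regions within control regions, 50% overlap, tags per kb and the top V/SVZ region only. Of the 10 members, 7 had promoter sequences in the RefSeq table (GRCm38.p6), from which no position was compared with mm9. Gene order and synonyms came from the same assembly.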

Additional observations from a re-analysis of the deposited data

How the results depend on the processing

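No paired analysis was possible because there was 1 library per tissue. The ratio at the members' shared places kept its direction and stayed within its interval at 50% overlap, per kb, with the most tagged region and with a common lowest fold, and so did the ratios of single places, with the exception of the Rasgrf1 place whose regions differ in length. With scores of at least 100, the members' V/SVZ over CP regions fell from 5 to 2, their CP over V/SVZ regions from 10 to 3, the members with a CP over V/SVZ region from 4 to 2, and the other imprinted genes with one, of all 48, from 30 to 16. Fewer regions enter under that minimum. Keeping direct regions within a listed control region left 6 of the 10 CP over V/SVZ regions, without the main regions of Impact and Inpp5f. Per kb, the median of all shared autosomal regions was 1.64. Alternatives chosen after seeing the data were direct-list tags, with which the pooled ratio was 2.61, a rise that follows from adding places of the CP over V/SVZ list, and the stretches between neighbours, with which the V/SVZ regions over control number 77 instead of 16 and the CP regions 85 instead of 14. Matching by gene ID or synonym changed no count. The counts of members over control did not change in any alternative by more than 1.5 times. Depth limits the smallest places: 6 against 31 tags gave an interval of 2.12 to 15.2.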

Other observations

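Slc38a4, an imprinted amino acid transporter gene, lies far from Kcnk9 on chromosome 15. A CP region over its 5' end held 116 tags over 1658 bp (96884751 to 96886408) and was in the CP over V/SVZ list. No V/SVZ region was listed there. The fold of the CP region was 15.38, close to the end of its list at 14.71, and the V/SVZ control list ends at 11.48. A V/SVZ region under that fold may therefore lie there, and the missing line is no sign that V/SVZ lacked tags. The V/SVZ over CP list held 3 regions inside the gene, of 8 to 21 tags. At one of them (96850009 to 96850395) V/SVZ had 21 tags and CP 23, a ratio of 1.10 (0.580 to 2.08).

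Osbpl1a, which lies next to Impact and encodes an oxysterol-binding protein, had 9 V/SVZ and 6 CP regions over control. Its largest held 61 and 101 tags (chromosome 18, 13038172 to 13038676), a ratio of 1.66 (1.19 to 2.31), and was in neither direct list. Of 19 genes counted as neighbours, Slc38a4 among them, 11 had a region over control, 10 in V/SVZ and 8 in CP. Of RefSeq genes with a curated transcript, 45.1% and 46.8% had one. Of the 11 neighbours, 6 had a V/SVZ over CP region and 7 a CP over V/SVZ region, where 54.6% and 57.0% of all genes with a control region did. With 11 genes, neither direct count stands apart from its background.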
